A study of Homo sapiens with 6 samples.

Results

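The EGF family ligands and the ERBB receptors they bind were followed in LS174T cells, a human colon adenocarcinoma line, that had received CompE (250 nM) or its vehicle DMSO for 48 h. The labels state triplicate cultures for each condition, and each culture gave 1 Affymetrix U133 Plus 2.0 array, so that 3 CompE arrays were set against 3 DMSO arrays. CompE is commonly short for Compound E, a gamma-secretase inhibitor, although the labels give only the abbreviation. All arrays come from 1 cell line, 1 dose and 1 time, and the series as a whole bears the names of NOTCH1 and neddylation in T-cell leukaemia. The family has 10 genes: the ligand genes EREG, AREG, HBEGF, TGFA, BTC and EPGN, and the receptor genes EGFR, ERBB2, ERBB3 and ERBB4. All probe sets that the platform annotation gives to one of these symbols were taken, together with the single AREG probe set, which the annotation table does not list and which was named by the rule. This found 9 of the 10 genes, of 19776 genes with a probe set in the series, and 33 probe sets. No probe set carried the symbol EPGN, which was not analysed here. The family was chosen from earlier results of this same contrast, so its CompE and DMSO values are given below as a description, with no p-value, and the statement that a member was called is part of that description.

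EGF family ligands are made as membrane-anchored precursors that metalloproteases such as ADAM17 cut to release the active growth factor. EREG, BTC and HBEGF bind EGFR and ERBB4, whereas AREG, TGFA and EPGN bind EGFR. Receptor dimers then signal through the RAS-ERK and PI3K-AKT cascades. ERBB2 has no known ligand and serves as a partner of the others, ERBB3 has little kinase activity of its own, and ERBB4 is itself cut by gamma-secretase in some of its forms. In colorectal tumours EREG and AREG RNA have been studied for years in relation to antibodies against EGFR.

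EREG, AREG, BTC and EPGN lie side by side on chromosome 4, and their promoters are shown because this stretch of the genome holds both family genes that were called lower. The sequences are RefSeq's on GRCh38.p14, from 250 bases before to 50 bases after the annotated start, read 5′ to 3′ on the strand of the gene. Capitals mark the motifs searched for, on both strands: the core promoter element TATAAA, the cyclic AMP response element TGACGTCA, the TEAD motif GGAATG, the RBPJ motif TGGGAA and the AP-1 motif TGANTCA.
EREG (chr4:74364895-74365194, plus strand): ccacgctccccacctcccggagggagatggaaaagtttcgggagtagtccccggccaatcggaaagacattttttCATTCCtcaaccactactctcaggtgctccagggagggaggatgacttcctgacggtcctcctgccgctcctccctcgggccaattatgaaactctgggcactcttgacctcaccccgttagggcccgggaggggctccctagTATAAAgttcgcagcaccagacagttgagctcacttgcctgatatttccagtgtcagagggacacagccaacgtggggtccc
AREG (chr4:74444886-74445185, plus strand): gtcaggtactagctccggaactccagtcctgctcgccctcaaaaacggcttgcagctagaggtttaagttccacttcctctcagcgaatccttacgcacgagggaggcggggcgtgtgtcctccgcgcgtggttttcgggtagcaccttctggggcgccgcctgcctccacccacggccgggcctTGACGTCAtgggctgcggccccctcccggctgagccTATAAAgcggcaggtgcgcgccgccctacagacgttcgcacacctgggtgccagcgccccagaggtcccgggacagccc
EPGN (chr4:74308220-74308519, plus strand): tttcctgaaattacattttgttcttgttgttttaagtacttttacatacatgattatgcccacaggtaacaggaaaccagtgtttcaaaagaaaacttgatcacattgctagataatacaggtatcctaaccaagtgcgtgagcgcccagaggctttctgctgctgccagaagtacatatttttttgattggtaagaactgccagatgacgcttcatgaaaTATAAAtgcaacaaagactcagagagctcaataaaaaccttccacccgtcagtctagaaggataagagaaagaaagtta
BTC (chr4:74794474-74794773, minus strand): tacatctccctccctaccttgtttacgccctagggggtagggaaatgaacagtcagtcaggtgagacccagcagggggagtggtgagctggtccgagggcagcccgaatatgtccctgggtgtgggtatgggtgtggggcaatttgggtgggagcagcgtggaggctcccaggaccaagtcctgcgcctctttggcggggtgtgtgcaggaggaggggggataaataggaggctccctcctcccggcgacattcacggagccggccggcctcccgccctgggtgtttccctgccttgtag
The letters TATAAA began at position -32 from the start in EREG, at -29 in AREG and at -29 in EPGN. The BTC window held none of the 5 motifs. The AREG window also held TGACGTCA at -65, and the EREG window held the TEAD motif on the other strand, printed as CATTCC, at -175. None of these matches overlapped another. Over all 34796 promoter windows of the same length, TATAAA occurred in 11.6%, TGACGTCA in 1.84%, GGAATG in 14%, TGGGAA in 24% and TGANTCA in 7.73%. RefSeq gave 11 windows for 9 of the 10 family genes (ERBB3 had no entry), and 4 of the 9 genes held TATAAA in a window (EREG, AREG, EPGN and EGFR). For EGFR the letters lay only in the window at chr7:55109589-55109888. The other EGFR window, at chr7:55018767-55019066, held none of the 5 motifs. The count of 4 is by gene, whereas the 11.6% is by window, so they were not compared. A match describes the letters and not a bound site.

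Values are deposited probe set intensities on a linear scale, and differences are log2 of CompE minus log2 of DMSO, with the standard error (SE). Of the 33 family probe sets, 24 were bright enough to enter the fit over all probe sets, and the 9 left out had intensities of at most 33.7 on any array. A probe set is said to be called when limma's adjusted p was under 0.05 in that fit. Of the 24, 2 were called lower in CompE, none higher, and 22 were not called. In the whole fit 1.1% of 32767 probe sets were called lower and 3.04% were called in either direction. Because the family was chosen on this contrast, nothing is read from that comparison. In 8 of the 24 all CompE arrays lay below all DMSO arrays and in 1 they lay above, against 12.5% of all fitted probe sets for the first pattern and 28.4% for either. The 24 differences had a median of -0.12 and ranged between -1.22 and 0.47, where the median of all fitted probe sets was 0.01. Background was gauged from 27 Bacillus control probe sets, which human RNA should not bind; their 95th percentile was an intensity of 45.7 (the Bacillus level), and 14 of the 33 family probe sets averaged at or below it in both groups. Between probe sets, intensity also depends on the probes, so levels of different genes were not ranked.

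EREG, which encodes epiregulin, had the largest difference among the fitted family probe sets. Its probe set 205767_at read 523.9, 447.6 and 440.5 on the CompE arrays, against 1104.3, 1086.9 and 1095.3 on the DMSO arrays. Every CompE array lay below every DMSO array, and the DMSO arrays lay close together. Means were 471 ± 46.3 in CompE and 1095 ± 8.69 in DMSO (SD, n = 3 each), a 2.33-fold lower level (log2 difference -1.22 ± 0.08 SE, 95% interval -1.43 to -1.02). This probe set was called lower. A dim second EREG probe set, 1569583_at, read 48.7, 35.9 and 57.5 in CompE, against 90.4, 89.5 and 69.7 in DMSO. Its groups did not overlap either, and its difference of -0.83 ± 0.20 was not called. In bulk cultures such as these, fewer cells that express a gene and less RNA of it per cell cannot be told apart.

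AREG encodes amphiregulin, a ligand of EGFR, and was measured by 1 probe set. Intensities were 432.0, 504.4 and 412.9 in CompE, against 1021.0, 988.2 and 913.5 in DMSO. The groups did not overlap. Means were 449.8 ± 48.3 in CompE and 974 ± 55.1 in DMSO (SD, n = 3 each), which is 2.17-fold lower (log2 difference -1.12 ± 0.10 SE, 95% interval -1.36 to -0.88), and the probe set was called. Without CompE replicate 1 the AREG difference was -1.09 and the probe set was not called.

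HBEGF, which encodes the heparin-binding ligand that also serves as the diphtheria toxin receptor, had 4 probe sets. The brightest, 38037_at, read 82.0, 75.2 and 79.1 in CompE, against 99.9, 114.6 and 97.8 in DMSO (1.32-fold lower, log2 difference -0.40 ± 0.08). For 203821_at the values were 41.3, 65.0 and 40.9 in CompE, against 85.7, 79.2 and 88.3 in DMSO (-0.82 ± 0.19). CompE was below DMSO without overlap in both, although 2 of the 3 CompE values of 203821_at lay under the Bacillus level. Another probe set, 244857_at, overlapped between groups and stayed near that level (0.11 ± 0.14), and 222076_at did not enter the fit, with intensities of at most 18.1. None of the HBEGF probe sets was called.

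TGFA, the gene of transforming growth factor alpha, showed no such decrease. Its brightest probe set, 205016_at, read 269.2, 302.7 and 309.9 in CompE, against 258.6, 265.8 and 270.4 in DMSO, with an overlap of 1 CompE array. The difference was 0.15 ± 0.07 (95% interval -0.04 to 0.33). The second, 211258_s_at, read 68.4, 55.8 and 54.9 in CompE, against 43.7, 54.9 and 33.0 in DMSO. The DMSO mean lay at or below the Bacillus level, and the CompE mean was 1.30-fold above that level. The log2 difference was 0.47 ± 0.20, with a 95% interval of -0.03 to 0.96 that includes no change. The groups separated only by a margin below the printed decimal, and the probe set was not called. The third, 205015_s_at, was under the Bacillus level on every array.

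BTC, which encodes betacellulin, was lower in CompE by its brighter probe set. The readings of 241412_at were 135.2, 129.9 and 110.3 in CompE, against 155.8, 157.5 and 161.2 in DMSO. CompE was 1.27-fold lower with no overlap (log2 difference -0.34 ± 0.09), which was not called. Its other probe set, 207326_at, read 73.8, 69.2 and 53.5 in CompE, against 72.4, 66.6 and 73.6 in DMSO. Here the groups overlapped (-0.13 ± 0.13). Over the ligand genes as a whole, 6 of the 11 fitted probe sets lay below DMSO without overlap, beside 12.5% of all fitted probe sets. The median difference of the 11 was -0.34. The family was chosen on this contrast, so nothing is read from that comparison.

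**Figure D1:**
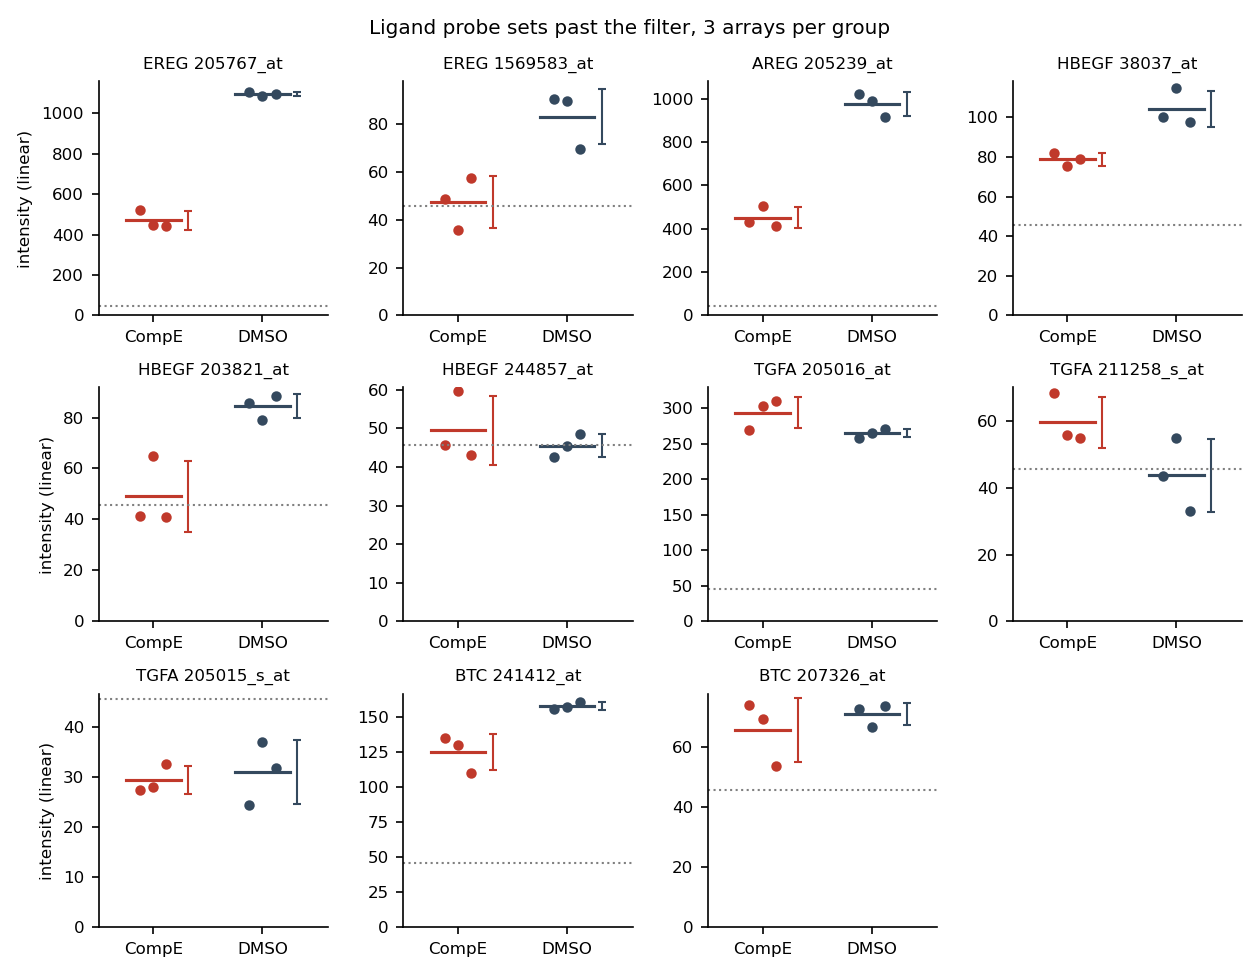
Intensity (linear scale) of each fitted ligand probe set on the 3 CompE arrays and the 3 DMSO arrays. Points are arrays, horizontal bars are means, vertical bars span the mean ± SD, and the dotted line is the Bacillus control level of 45.7. For EREG 205767_at the CompE arrays sit between 440.5 and 523.9, all under the DMSO arrays, while TGFA 205016_at overlaps.

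EGFR, the receptor of every ligand above, had 9 probe sets, of which 6 entered the fit and 0 were called. By 224999_at it read 370.6, 353.2 and 304.1 in CompE, against 311.1, 322.3 and 281.9 in DMSO (log2 difference 0.16 ± 0.10, 95% interval -0.08 to 0.41). By 201984_s_at it read 212.3, 232.2 and 187.8 in CompE, against 228.2, 207.7 and 225.1 in DMSO (-0.07 ± 0.10, 95% interval -0.30 to 0.17). The groups overlapped in both. The probe sets did not give 1 direction: 201983_s_at read 142.5, 108.7 and 161.5 in CompE, against 183.3, 181.0 and 166.9 in DMSO. Its difference of -0.38 ± 0.15 (95% interval -0.76 to -0.007), without overlap, was not called. The other fitted EGFR probe sets averaged at or below the Bacillus level in both groups.

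ERBB2, the co-receptor without a ligand, was measured mainly by 216836_s_at, with 821.4, 855.4 and 760.9 in CompE, against 884.6, 811.0 and 867.6 in DMSO. The groups overlapped and the difference was -0.07 ± 0.07 (95% interval -0.25 to 0.11). The dimmer 210930_s_at read 88.0, 68.8 and 89.6 in CompE, against 102.6, 103.0 and 98.6 in DMSO, with no overlap (-0.31 ± 0.11, 95% interval -0.60 to -0.03, not called). The third ERBB2 probe set, 234354_x_at, did not enter the fit.

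ERBB3, a neuregulin receptor that signals mostly to PI3K, read 2224.6, 2260.8 and 2154.7 in CompE, against 2036.3, 2159.2 and 2178.8 in DMSO, by 226213_at. The difference was 0.06 ± 0.06, with a 95% interval of -0.09 to 0.21, and the groups overlapped. By 202454_s_at ERBB3 read 1878.0, 1967.1 and 1714.7 in CompE, against 1825.1, 1808.7 and 1784.9 in DMSO (0.03 ± 0.07, 95% interval -0.14 to 0.21). These intervals are part of the description and set no limit on a change of ERBB3 RNA. When arrays were scaled on their hybridisation controls, a choice that moved the median of all genes by more than 0.1, to -0.12, these ERBB3 differences were -0.08 and -0.11. ERBB4, the other neuregulin receptor, was near background. Its brightest probe set, 233498_at, read 38.8, 50.3 and 46.1 in CompE, against 42.5, 49.4 and 60.5 in DMSO, and 3 of its 4 probe sets averaged at or below the Bacillus level in both groups. No statement on a change of ERBB4 can be made at that level. Over the receptor genes, 13 of 21 probe sets were fitted, 0 were called and the median difference was -0.10 (range -0.38 to 0.16).

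**Figure D2:**
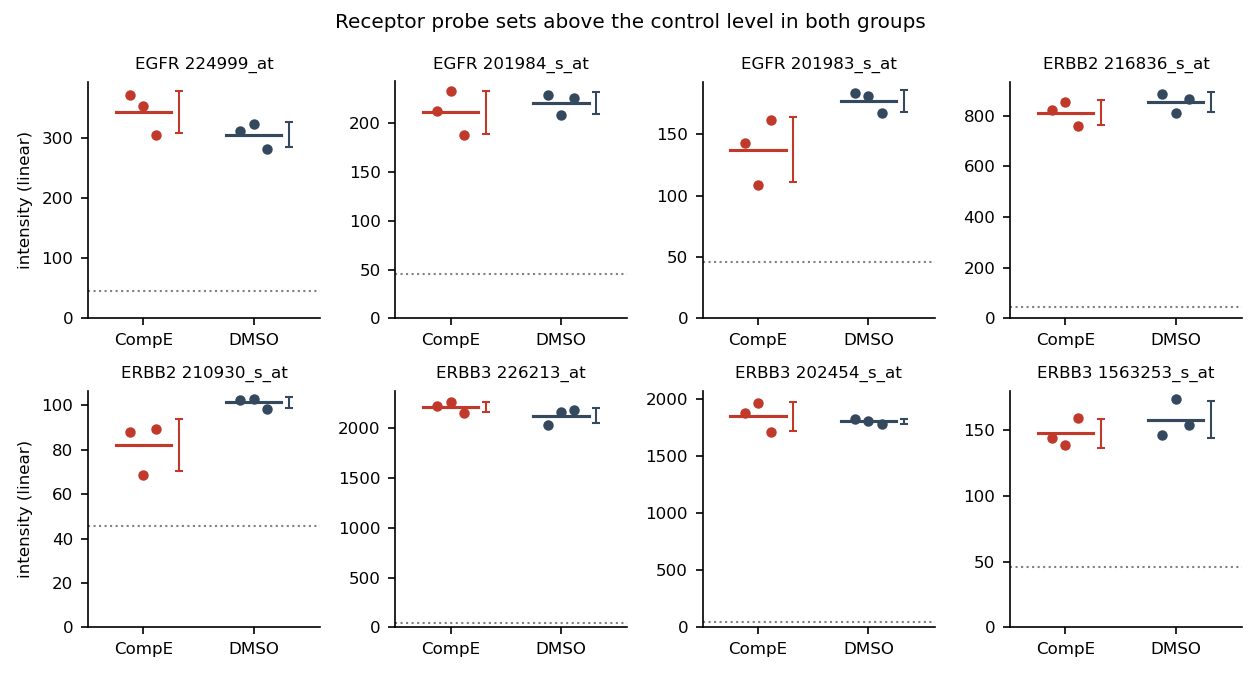
Intensity (linear scale) of the EGFR, ERBB2 and ERBB3 probe sets above the Bacillus level in both groups, on the 3 CompE arrays and the 3 DMSO arrays. Points are arrays, horizontal bars are means, vertical bars span the mean ± SD, and the dotted line is the Bacillus control level of 45.7. The groups overlap in all panels except EGFR 201983_s_at and ERBB2 210930_s_at, where CompE lies lower.

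**Figure D3:**
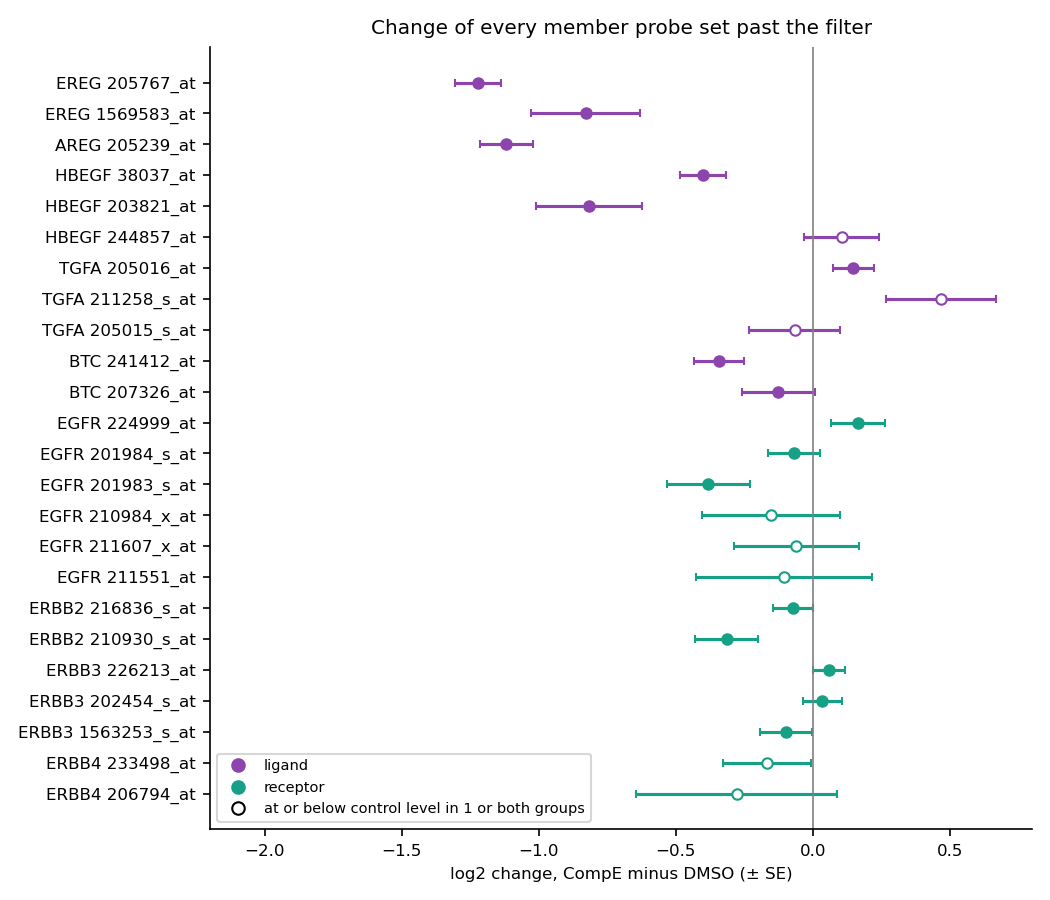
The log2 difference, CompE minus DMSO, of all 24 fitted family probe sets, with bars of ± 1 SE from the limma fit. Open symbols are probe sets at or below the Bacillus level in 1 or both groups; EREG and AREG lie farthest to the left, down to -1.22, and the receptors lie between -0.38 and 0.16.

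Ligands of these receptors outside the family, listed with earlier results of these data known, are given with limma's adjusted p. EGF itself read 198.3, 181.8 and 168.5 in CompE, against 202.1, 189.8 and 208.5 in DMSO (log2 difference -0.13 ± 0.08, adjusted p = 0.428). The neuregulin gene NRG1, whose product binds ERBB3 and ERBB4, gave 0.07 ± 0.10 by its brightest probe set (adjusted p = 0.740). NRG2 averaged at or below the Bacillus level in DMSO, and its CompE mean was 1.04-fold above that level (log2 difference 0.65 ± 0.25, adjusted p = 0.230). NRG3 and NRG4 did not enter the fit. NRG4 read 1.1, 1.1 and 0.0 in CompE, against 6.0, 6.5 and 7.6 in DMSO, all far below the Bacillus level. Of these 5 genes, 3 were tested and 0 were called by limma, with 1 at an unadjusted p under 0.05. By comparison, 3.84% of 14309 genes, each represented by its brightest probe set, were called in either direction, and 1.31% were called lower.

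The genes around the receptors mostly showed no call. Among 14 genes for ligand release and trafficking (ADAM17, ADAM10, the iRhom genes RHBDF1 and RHBDF2 and others), 0 were called by limma and 0 had an unadjusted p under 0.05. ADAM10, a sheddase, had the smallest p, with a difference of 0.11 ± 0.05 (adjusted p = 0.318). Of 20 genes that restrain or degrade the receptors, 19 were tested. CBLB, an E3 ubiquitin ligase, rose 1.38-fold, with 202.9 ± 2.20 in CompE and 147.6 ± 9.40 in DMSO (SD, n = 3 each; log2 difference 0.46 ± 0.07, adjusted p = 0.0302). ERRFI1, also called MIG6, an inhibitor of the EGFR kinase, fell 1.31-fold, with 223.7 ± 13.4 in CompE and 293.7 ± 8.54 in DMSO (-0.39 ± 0.07, adjusted p = 0.0460). The other 17 were not called. Both calls were lost on leaving out any 1 of the 6 arrays, where the count was 0. CBLB was also not called with the median of its probe sets.

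Of the adaptors and the RAS-ERK core, 13 of 20 genes were tested and 0 were called, with 4 at an unadjusted p under 0.05. SOS1, the exchange factor for RAS, had the smallest p (0.35 ± 0.09, adjusted p = 0.0974), but the median over its probe sets was 0.04. Among the PI3K, AKT, PLCG and STAT genes 13 of 17 were tested, and PIK3R3, a regulatory subunit of PI3K, rose 1.29-fold (0.37 ± 0.07, adjusted p = 0.0496). Without any 1 array the count was 0, and PIK3R3 was also not called with the median of its probe sets. The median differences of these lists were -0.04 and 0.03, against 0.02 over all genes.

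Genes that ERK signalling is known to induce were taken as a list of ERK feedback and immediate early genes. All 22 were tested: 7 fell, 1 rose and 14 were not called. Of the 22, 31.8% fell and 36.4% were called either way, beside 1.31% and 3.84% of all genes. The list was written with earlier results of these data known, so nothing is read from that comparison. The median difference was -0.19, against 0.02 over all genes, and 19 of the 22 were negative. ETV4, an ETS transcription factor, read 354.0, 353.5 and 341.0 in CompE, against 934.4, 861.4 and 883.1 in DMSO, with no overlap. It fell 2.55-fold (-1.35 ± 0.06, adjusted p = 0.00210), and its second probe set gave -1.57. EPHA2, a receptor tyrosine kinase of ephrins, read 388.0, 393.6 and 393.3 in CompE, against 631.7, 593.7 and 608.9 in DMSO, and fell 1.56-fold (-0.64 ± 0.06, adjusted p = 0.00750). JUN, a subunit of AP-1, went the other way. Its values were 1466.7, 1419.7 and 1479.8 in CompE, against 884.3, 905.4 and 828.8 in DMSO, a 1.67-fold rise (0.74 ± 0.06, adjusted p = 0.00659) that its other probe sets shared in sign, at 0.50 to 1.05.

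The remaining falls of that list are named here after their values were seen. FOS, the partner of JUN in AP-1, fell 2.30-fold, with 59.3, 65.4 and 56.6 in CompE, against 161.2, 132.9 and 125.5 in DMSO (-1.20 ± 0.12, adjusted p = 0.00974). DUSP6, the phosphatase of ERK, gave -0.67 ± 0.08 (adjusted p = 0.0151) and SPRY2, a Sprouty inhibitor, -0.33 ± 0.06 (adjusted p = 0.048). IER3 gave -0.80 ± 0.10 (adjusted p = 0.0200) and FOSL1, another AP-1 subunit, -0.49 ± 0.07 (adjusted p = 0.0308). Not all ERK-linked genes gave negative values. PHLDA1, a pleckstrin-homology-like domain gene, was not called by its brightest probe set (0.23 ± 0.08), but its 6 probe sets were all positive (0.23 to 0.48) and 3 of them were called higher. With the median of each gene's probe sets, 3 genes of the list rose and 8 fell. DUSP4, another dual-specificity phosphatase, gave 0.22 ± 0.07, and SPRY4 gave -0.01 ± 0.13, neither called. The count of calls rested on the full set of arrays, as it was 1 without CompE replicate 1, 3 without DMSO replicate 2, 4 without DMSO replicate 1 and 5 without any of the remaining arrays. ETV4 was called in all 6 of these fits, while EPHA2 and JUN lost their call without CompE replicate 1. FOS was called in 4 of the 6, DUSP6 and IER3 in 1 each, and FOSL1 and SPRY2 in 0.

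The list of YAP-TEAD genes holds targets such as CCN2 and components of the pathway itself, among them YAP1, TEAD1 and the co-activator WWTR1 (TAZ). Of its 16 genes 14 were tested and 2 fell (14.3%, beside 1.31% of all genes), with a median of -0.03. WWTR1 read 61.9, 74.6 and 69.3 in CompE, against 105.2, 101.4 and 114.2 in DMSO (1.56-fold lower, -0.64 ± 0.09, adjusted p = 0.0288), but the median of its probe sets gave -0.24 and was not called. CCN2, a secreted matrix protein gene, averaged at or below the Bacillus level in CompE, and its DMSO mean was 1.10-fold above that level (log2 difference -0.74 ± 0.11, adjusted p = 0.0330). Without any 1 array this count was 0. All of these lists were written with earlier results of these data known.

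**Figure D4:**
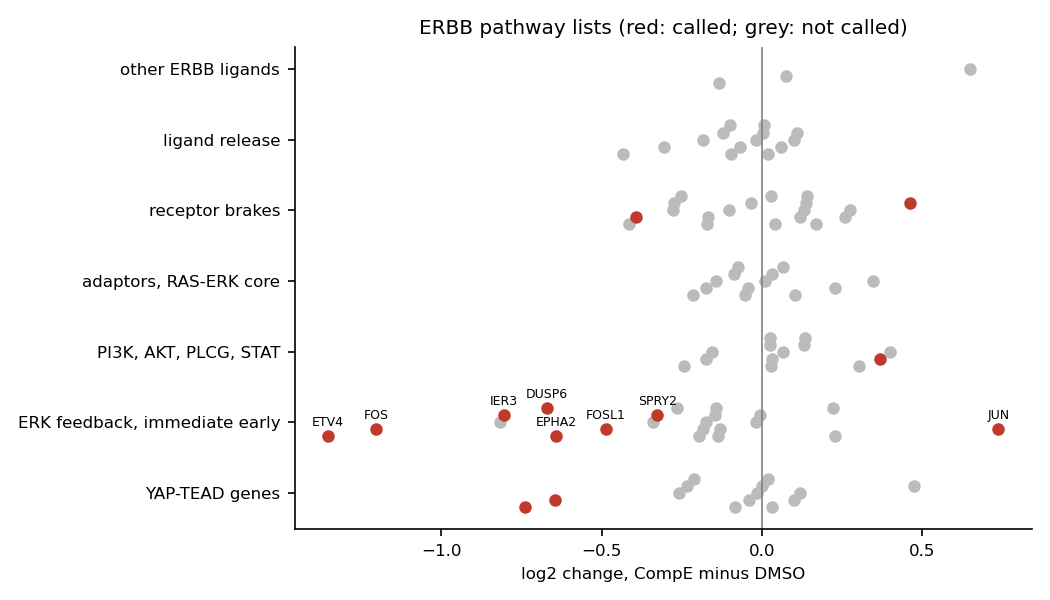
The log2 difference, CompE minus DMSO, of every tested gene of 7 lists, 1 point a gene, spread vertically for legibility only. Red points were called (limma, adjusted p under 0.05) and grey points were not; the 7 falls and 1 rise of the ERK list are labelled, from ETV4 at -1.35 to JUN at 0.74.

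The surroundings of EREG on chromosome 4 were examined because the family's called genes lie next to each other. Within 1 Mb on either side, the RefSeq gene table listed 45 genes; the array measured 23 of them and 14 were tested. Among the 11 tested that are not in the family, 4 fell, 1 rose and 6 were not called, with a median of -0.16. Over all genes 1.31% were called lower and 3.84% in either direction. The stretch was chosen because it holds the called members, so nothing is read from that comparison. The next 4 genes, none called, are named after their values were seen. ALB, AFM and LOC105377276 averaged at or below the Bacillus level in both groups. PF4 averaged at or below it in CompE, and its DMSO mean was 1.76-fold above it (log2 difference -0.84 ± 0.16, adjusted p = 0.0562). The 4 falls that were called lay in CXC chemokine genes, whose products attract neutrophils. CXCL8, interleukin-8, read 166.0, 190.3 and 143.1 in CompE, against 545.3, 513.4 and 421.2 in DMSO, and fell 2.97-fold (-1.57 ± 0.14, adjusted p = 0.00875). CXCL1 read 135.9, 131.7 and 138.1 in CompE, against 341.7, 360.0 and 296.2 in DMSO (2.45-fold lower, -1.29 ± 0.09, adjusted p = 0.00405). CXCL2 read 115.3, 102.2 and 129.7 in CompE, against 238.8, 243.8 and 218.0 in DMSO (2.03-fold lower, -1.02 ± 0.10, adjusted p = 0.0121). The groups overlapped in none of these genes.

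CXCL3 (-0.69 ± 0.07, adjusted p = 0.0138) and RASSF6, the gene that rose (0.60 ± 0.09, adjusted p = 0.0309), are named after their values were seen. CXCL1, CXCL2 and CXCL3 are close in sequence, so their probe sets may bind each other's RNA. MTHFD2L, a mitochondrial folate enzyme gene that lies between CXCL2 and EPGN, gave -0.09 ± 0.06 (adjusted p = 0.490), and PARM1, beyond BTC, gave -0.16 ± 0.10 (adjusted p = 0.431). The count of 5 calls was 1 without CompE replicate 1 or without DMSO replicate 2, 2 without DMSO replicate 1 or 3, 3 without CompE replicate 3 and 4 without CompE replicate 2. CXCL1 was called in all 6 of these fits, while CXCL8 lost its call without CompE replicate 1 and without DMSO replicate 2. CXCL2 was called in 2 of the 6, CXCL3 in 1 and RASSF6 in 0. Over all alternatives the CXCL2 difference ranged from -1.16 to -0.60. RASSF6 was also not called with the median of its probe sets.

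**Figure D5:**
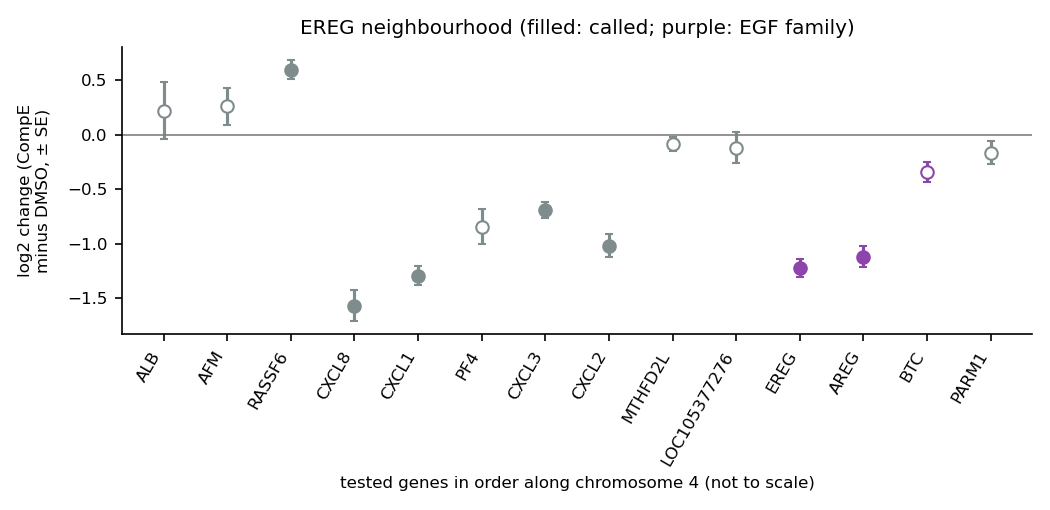
The log2 difference, CompE minus DMSO, with ± 1 SE, of the 14 tested genes within 1 Mb of EREG, in their order along chromosome 4 and not to scale. Filled symbols were called and purple marks the family; CXCL8 is lowest at -1.57, MTHFD2L between the chemokine and ligand genes lies at -0.09.

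The genes whose log2 values followed EREG most closely over the 6 arrays were TIMM21 (Pearson r = 0.998), MTDH (0.997), TNFRSF11A (0.997), FOXQ1 (0.996) and HSPA5 (0.995). These points are 6 arrays in 2 groups and share their scaling, so a high r reflects how the groups separate as well as any likeness within them. The part of each in the order of the genes was not tested. An r above 0.95 was reached by 316 of 14308 genes. The 5 genes did not differ by like amounts. FOXQ1, a forkhead transcription factor, fell by 1.36 on the log2 scale (adjusted p = 0.00426) and TNFRSF11A, the receptor RANK, by 0.43 (adjusted p = 0.0249, a call lost on leaving out any 1 array), whereas TIMM21 gave -0.08, MTDH -0.18 and HSPA5 -0.20, none of which was called. Within the family r with EREG was 0.972 for AREG, 0.933 for HBEGF, 0.918 for BTC, 0.530 for ERBB2 and 0.342 for ERBB4, and it was negative for EGFR (-0.555), ERBB3 (-0.613) and TGFA (-0.824).

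Median intensities lay between 36.9 and 38.6 over the 6 arrays, and array pairs correlated across probe sets at 0.987 to 0.988 within groups and 0.981 to 0.985 between groups. The ratio of 3′ to 5′ ACTB probe sets was 1.51 ± 0.0193 in CompE and 1.44 ± 0.0201 in DMSO (SD, n = 3 each; exact permutation p = 0.1, two-sided, the smallest these groups allow), and for GAPDH 0.946 ± 0.0264 in CompE and 0.968 ± 0.0106 in DMSO (exact permutation p = 0.3). The part of this ACTB difference in the members' values was not tested. The label as a colon line was checked on 12 markers of colon epithelium, all above the Bacillus level, with summed intensities of 34234 to 35018 in CompE and 33202 to 34823 in DMSO. Of these 12, 3 were called, all higher (25%, beside 3.84% of all genes called in either direction). The other 9 were not called, and 4 of the 12 differences were negative. The following genes are named after their values were seen. MUC2, the goblet cell mucin gene, rose 2.07-fold (log2 difference 1.05 ± 0.07, adjusted p = 0.00378). CDX2, an intestinal transcription factor gene, rose 1.35-fold (0.43 ± 0.06, adjusted p = 0.0228), and LGR5, a stem cell receptor gene, 1.35-fold (0.43 ± 0.07, adjusted p = 0.0392). CDH17 was lower without overlap and was not called (-0.31 ± 0.06, adjusted p = 0.051). The part of these markers in the members' values was not tested. Of 6 fibroblast markers 3 averaged above the Bacillus level in both groups, the brightest being COL1A1 with 99.2 ± 16.3 in CompE and 96.0 ± 9.18 in DMSO (SD, n = 3 each), with sums of 330.8 to 346.8 in CompE and 275.1 to 394.3 in DMSO. Of 4 leukocyte markers with a probe set 0 were above it in both groups (CD14 averaged 44.4 in CompE and 56.1 in DMSO; sums 94.5 to 115.9 in CompE and 112.1 to 132.8 in DMSO), and of 6 endothelial markers only PECAM1 was (sums 253.8 to 288.3 in CompE and 268.5 to 348.7 in DMSO).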

How the data were processed

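RNA of 3 CompE and 3 DMSO cultures was compared on 1 array each, grouped by sample title. The authors, per the labels' protocols and the design text, labelled RNA from its 3′ end and scaled the arrays with dChip; the deposited values are intensities on a linear scale, and its version and mismatch setting are not stated there. Here, intensities under 1 (0.768% to 0.902% of an array's values) were set to 1 and log2 was taken, with no second normalization. The 62 control probe sets and the lowest 40% of mean log2 value (below 4.61, an intensity of 24.4) were left out, which left 32767 of 54674 probe sets. The test of CompE against DMSO was limma's (version 3.58.1, R 4.3.3; lmFit and eBayes, two-sided, no covariate), with Benjamini-Hochberg adjustment over all fitted probe sets. The step was tested on simulated data. Precision is limited by having 3 arrays a group, with a median SE of 0.10 for a log2 difference. Folds are 2 to the power of the log2 difference. Where the dimmer group averaged at or below the Bacillus level, the fold given is the brighter group's mean over that level. It leaves out the error of the means.

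The platform annotation gave 1 gene to 41097 probe sets, several to 1800, and did not list 11721, which are unnamed here; the AREG probe set was named by the rule. Symbols were updated through Entrez identifiers for 41043. A gene was represented by its brightest fitted probe set (14309 genes) and took that probe set's adjusted p. The RefSeq gene table, GRCh38.p14, served for names and gene order only. The members and lists were chosen with earlier results of these data known. Named were all members, EGF and NRG1 to NRG4, up to 3 called genes of smallest p from each list and from the chromosome 4 neighbours (or the gene of smallest p where none was called), and the 5 genes most correlated with EREG. Alternatives were no filter, a 60% filter, quantile normalization, centring on the array median or on hybridisation controls, adding 16 before log2, the 10,896 least variable probe sets, an intensity trend, a replicate block, the median of a gene's probe sets, leaving out each array, and, chosen after seeing the data, a fit over genes alone.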

Additional observations from a re-analysis of the deposited data

How the results depend on the processing

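EREG 205767_at was lower in CompE under every alternative run (log2 difference -1.37 to -1.18), and AREG likewise (-1.26 to -1.06). As a description of values that chose the family, EREG was not called with the replicate block, and AREG was not called with it, without the filter or without CompE replicate 1. Of the probe sets not called, HBEGF 203821_at was called in 4 alternatives, HBEGF 38037_at and BTC 241412_at in 3 each, EREG 1569583_at in 2 and TGFA 205016_at in 1; the receptors were called in 0.
The number of calls moved more than the values. Called probe sets (995, of which 633 higher and 362 lower) were 130 without a filter, 2604 with the 60% filter, 1797 on hybridisation controls (356 higher, 1441 lower), 4477 among the 10,896 least variable, 3444 with an intensity trend, and 148 to 288 without any 1 array. Called genes (550) were 77, 1398, 926 (210 higher, 716 lower), 2845, 1934 and 90 to 178 in the same order, and 1022 fitted over genes alone.
For the lists, no filter gave 1 call for other ligands, 0 for brakes, PI3K genes and YAP-TEAD genes, and 1 each for ERK genes and neighbours. The 60% filter gave 7 for brakes, 2 for adaptors and 3 for PI3K genes. Hybridisation controls gave 4 for brakes and 1 for adaptors. The array median gave 0 and adding 16 gave 2 for PI3K genes. The least variable probe sets gave 9 for brakes, 4 for adaptors, 6 for PI3K genes, 1 for ligand release, 13 for ERK genes, 1 for YAP-TEAD genes and 2 for neighbours. The intensity trend gave 6 for brakes, 3 for adaptors, 3 for PI3K genes and 1 for ligand release. The median of probe sets gave 1 each for brakes, adaptors and YAP-TEAD genes, and 0 for PI3K genes. Fitting genes alone gave 1 for adaptors and 3 for PI3K genes. Without any 1 array, ERK genes gave 1 to 5, neighbours 1 to 4, and brakes, PI3K genes and YAP-TEAD genes 0. The causes of these shifts were not tested, the part of the smaller number of arrays included.
On hybridisation controls ADAM10 was -0.032 and NRG1 -0.068. Without any 1 array NRG1 ranged from -0.025 (without DMSO replicate 1) to 0.137. Same-numbered arrays did not deviate together over all fitted probe sets (r = 0.0204, -0.0779 and -0.0221). This cannot tell whether same-numbered cultures were set up side by side, and the labels do not say. With the replicate block, limma called 0 probe sets and 0 genes, hence 0 in each list, with 5668 probe sets at an unadjusted p under 0.05. Dim probe sets, such as those of ERBB4, allow no statement on change.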
